A study of Bos taurus with 24 samples.

Results

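The genes described here were 10 imprinted genes chosen by name: H19, SNRPN, PEG3, PEG10, MEST, CDKN1C, PHLDA2, GRB10, PLAGL1 and GNAS. A row was found for 9 of the 10 symbols among the 24621 rows of the count table. GNAS had 2 numbered rows, GNAS_1 and GNAS_2, so that 10 rows were read. PEG3 had no row under its own symbol and was not analysed here. The libraries came from 24 single early blastocysts of Holstein cattle, with 8 embryos in each of 3 conditions and no pooling of embryos. In vivo derived embryos (males A1, A2, A3, A4 and A8, females A6, A7 and A9) were flushed from the uterus of 3 FSH-superovulated and inseminated cows. Embryos of serum-containing medium (males B1, B5 and B7, females B2, B3, B4, B6 and B8) went through oocyte maturation and embryo culture with fetal bovine serum. Embryos of serum-free medium (males C1, C2, C4, C6 and C7, females C3, C8 and C10) were matured with epidermal growth factor and cultured with albumin, insulin, transferrin and selenium. The in vitro embryos came from oocytes of slaughterhouse ovaries in 3 independent experiments, and semen of the same bull was used for all embryos. Superovulation therefore goes with the in vivo condition, and maternal origin and culture cannot be told apart. The in vitro embryos were harvested on successive days after insemination, and the in vivo derived ones were flushed on the later of these days. Embryo age may thus differ as well, and the labels do not give it. The labels do not say which cow or experiment an embryo came from, so no value within a cow or an experiment could be given.

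An imprinted gene is transcribed mainly from the copy inherited from 1 parent, because DNA methylation laid down in the egg or the sperm marks that copy and is kept through the wave of demethylation of the early embryo. Many imprinted genes act on the growth of the fetus and the placenta, and several sit together in domains that 1 imprinting control region governs. In cattle, disturbed imprinting after in vitro culture with serum is known from the large offspring syndrome. In mouse and human, SNRPN, PEG3, PEG10, MEST and PLAGL1 are transcribed from the paternal copy, and H19, CDKN1C and PHLDA2 from the maternal copy. GRB10 is transcribed from the maternal copy in most tissues of the mouse. GNAS gives several transcripts of different parental origin. The counts do not separate the parental copies, so every value below is a total level of both.

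Each embryo had between 3253051 and 9000447 counts of uniquely mapped exon fragments. The labelled sexes were checked with Y-linked DDX3Y, which had 0 to 2 counts in the 11 females and 101 to 902 in the 13 males. The blastocyst label was checked with 10 trophectoderm markers, genes of the outer epithelium that forms the placenta. Levels are given as CPM, counts scaled to a common library size. Their summed level was 7503 to 14768 CPM in vivo, 5035 to 28526 CPM in serum-free medium and 322 to 5161 CPM in serum-containing medium, and the last range did not overlap the in vivo one. The keratins KRT8 and KRT18 made up most of this sum in every embryo but B2 and B7. In A2 they had 14414 of 14768 CPM, and in B8 4881 of 5161 CPM. Of the 7 trophectoderm markers tested between serum-containing medium and in vivo, 5 were called lower and 0 higher, beside 7.34% of all genes lower. In males 4 of 7 were called lower and 1 higher, beside 8.03% and 5.31% of all genes. The summed level of 6 inner cell mass and epiblast markers was 326 to 861 CPM with serum against 702 to 1045 CPM in vivo. Of the 4 of them tested with all embryos, 0 were called lower and 1 higher, beside 7.34% and 6.43% of all genes. Their median log2 fold change was -0.18. The summed level of 9 hypoblast markers was 33.5 to 3016 CPM with serum against 4755 to 7425 CPM in vivo, while that of cumulus and granulosa cell markers was 1.49 to 34.9 CPM against 5.04 to 31.7 CPM, with PTX3 at 0 in every embryo. The keratin pair KRT8 and KRT18 was lowest in embryos B2 (83.0 CPM), B7 (126 CPM) and B5 (289 CPM). The same embryos had the fewest genes with a count, 12348 in B2, 12267 in B7 and 11735 in B5, although B5 had the most counts. B1 followed with 12390, and all other embryos had at least 12943 genes detected. Whether the RNA or the library of these embryos has a part in their values was not tested. In whole embryos, fewer cells of a type and less RNA per cell cannot be told apart. With both sexes together, the differences of the members between serum-containing medium and in vivo are therefore also given without B2, B5 and B7. This choice was made after seeing the data and leaves out H19, CDKN1C and GNAS_2.

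The members fell into a group counted in every embryo and a group that was rarely counted. SNRPN, a core protein of the splicing machinery, had 368 to 2648 counts per embryo. GNAS_1, a row of the gene of the stimulatory G protein alpha subunit, had 33 to 401. Which transcripts GNAS_1 and GNAS_2 measure is not given in the sources used here. GRB10, an adaptor that restrains insulin and growth factor signalling, had 11 to 154 counts. MEST, a membrane enzyme of the alpha/beta-hydrolase family, was counted in 21 of the 24 embryos with at most 97 counts. PHLDA2 (12 embryos), PLAGL1 (10), CDKN1C (9) and PEG10 (6) were counted in fewer. H19, the noncoding RNA downstream of IGF2, had 1 count in 1 embryo, the female C3, and GNAS_2 had 0 in all embryos. A count of 0 allows up to 3 counts, which is 0.345 to 0.919 CPM depending on the embryo, so H19 was not detectable at this depth rather than shown to be absent. Gene lengths were not used, so levels are compared only between embryos and not between genes.

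**Figure D1:**
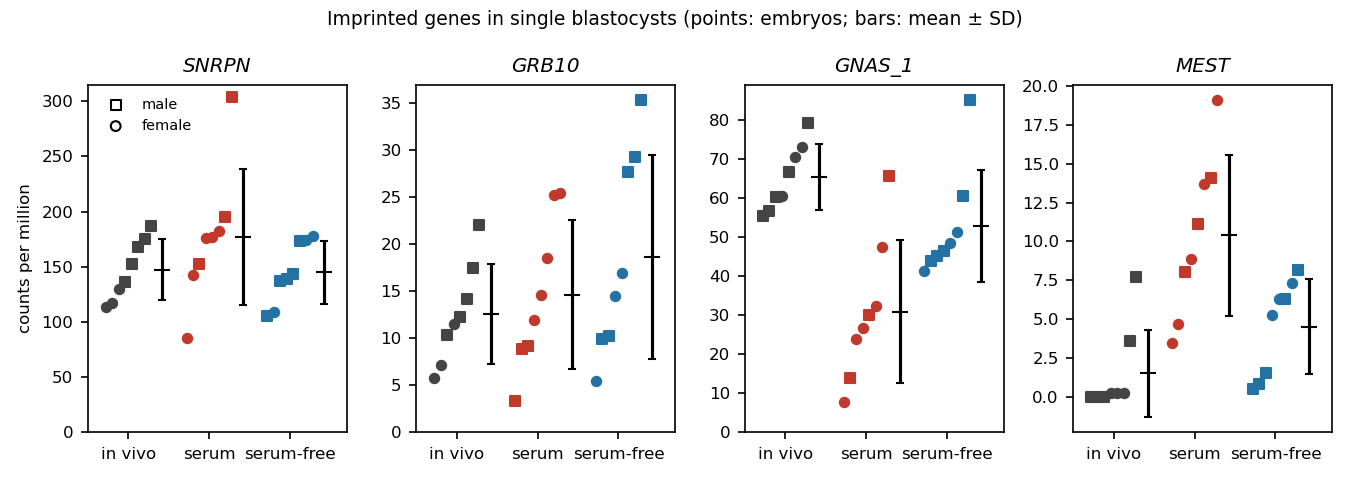
Level of SNRPN, GRB10, GNAS_1 and MEST in CPM (vertical axis, linear, a separate scale for each gene) in every embryo of the 3 conditions (horizontal axis). Squares are males, circles are females, and the bars beside them give the mean ± SD of 8 embryos. GNAS_1 lay below the in vivo range in 7 of 8 embryos of serum-containing medium, and MEST lay above it in 6 of 8.

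MEST was higher in embryos of serum-containing medium than in vivo, and GNAS_1 was lower. Differential expression was tested with edgeR's quasi-likelihood test on all genes for which every embryo of at least 1 condition had 15 counts, with p-values adjusted over all genes tested, and a gene was called at an adjusted p under 0.05 with a fold change of at least 2. Of the 4 members that passed this limit, these 2 were called, beside 1011 of 7339 genes (13.8%) over the whole table. Of all genes, 6.43% were called higher and 7.34% lower in serum-containing medium. SNRPN and GRB10 were not called.

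For MEST, the in vivo derived embryos A1, A2 and A4 had 0 CPM, A7 had 0.223, A6 had 0.240, A9 had 0.241, A3 had 3.56 and A8 had 7.68 CPM. The embryos of serum-containing medium ranged from 3.48 CPM (B6) over a median of 9.99 to 19.1 CPM (B3), and those of serum-free medium from 0.508 (C7) over 5.76 to 8.16 CPM (C6). In serum-containing medium every embryo was thus above 6 of the 8 in vivo derived ones, and the remaining 2, both males, overlapped the range of both media. The mean was 10.4 ± 5.20 CPM (SD, n = 8) in serum-containing medium against 1.49 ± 2.78 CPM in vivo, a log2 fold change of 2.77 ± 0.80 (SE, adjusted p = 0.0148). In the fits without 1 embryo it ran from 2.57 to 4.01, with the highest value without A8, the in vivo derived embryo with the most MEST. MEST passed the count limit through the embryos of serum-containing medium, where it was high. With every gene tested that had a count, the adjusted p was 0.0362, and it stayed under 0.05 in 7 of the 16 fits that left out 1 embryo each. A 2-sided exact permutation test of the mean log2(CPM + 1), adjusted over 19159 genes, gave 0.0136, with a background of 6.55% of genes past that test and a difference of at least 1. Without B2, B5 and B7 the log2 fold change was 2.71 (adjusted p = 0.0305), and 2.67 (adjusted p = 0.0628) with every counted gene tested. COPG2, which overlaps MEST in the RefSeq annotation ARS-UCD2.0, had a mean of 13.8 ± 11 CPM in serum-containing medium and 21.2 ± 11.4 CPM in vivo. The library kit does not mark the strand, so reads of the overlap cannot be assigned to either gene.

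In serum-free medium MEST had a mean of 4.52 ± 3.09 CPM. It did not pass the limit against in vivo, and with every counted gene tested the adjusted p was 0.407. No member was called in that comparison, against 161 of 7314 genes (2.2%). Between the media, MEST was higher in serum-containing medium by a log2 fold change of 1.17 ± 0.50, with a 95% interval of 0.19 to 2.14 and an adjusted p of 0.111. It was 1.10 (adjusted p = 0.262) without B2, B5 and B7. No member was called between the media either, against 640 of 7181 genes (8.91%).

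No difference in SNRPN between the conditions passed the test. It ranged from 113 to 187 CPM in vivo (median 144), from 85.6 (B2) to 304 CPM (B5) in serum-containing medium (median 176) and from 106 to 177 CPM in serum-free medium (median 141). The 3 ranges overlapped, and the lowest and the highest of all 24 embryos were both of serum-containing medium. The log2 fold change over in vivo was 0.25 ± 0.19 for serum-containing medium (adjusted p = 0.336, 95% interval -0.13 to 0.63), and 0.18 (adjusted p = 0.389) without B2, B5 and B7. For serum-free medium it was -0.02 ± 0.14 (adjusted p = 0.956, 95% interval -0.30 to 0.26). These intervals leave out a fold change of 2 in either direction.

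**Figure D2:**
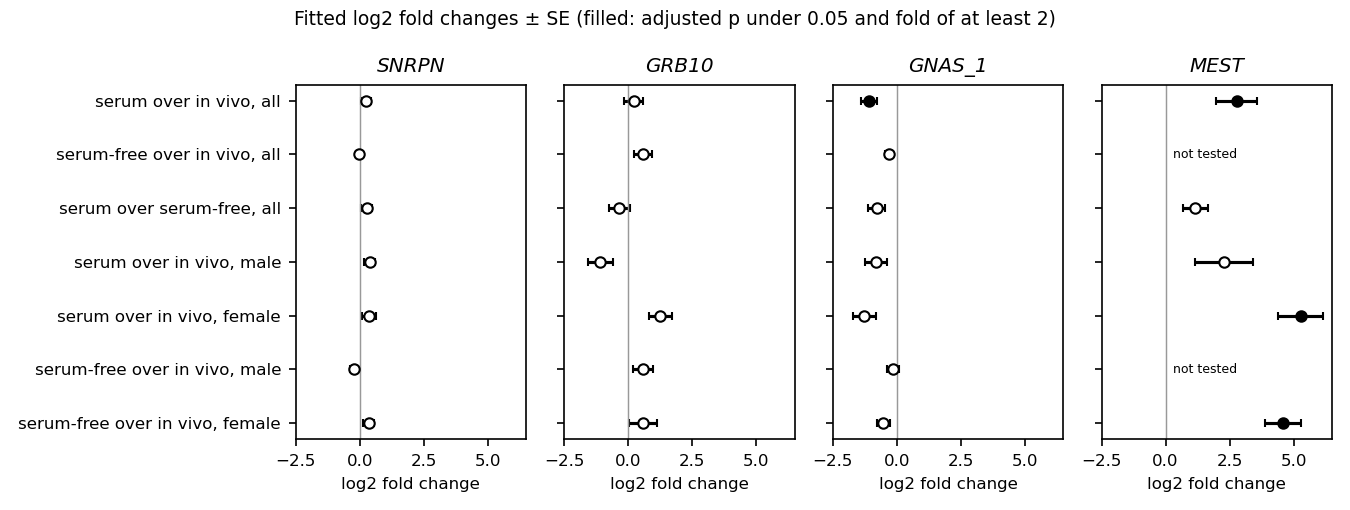
Fitted log2 fold change (horizontal axis) of SNRPN, GRB10, GNAS_1 and MEST in 7 comparisons (vertical axis), with bars of 1 SE. Filled points were called, open points were not. The comparisons over in vivo share the same in vivo derived embryos. The female values of MEST rest on 3 counts in vivo, and their size depends on the small count that the fit adds to each library.

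PLAGL1, a zinc finger transcription factor that slows the cell cycle, was seen mainly in embryos of serum-containing medium with a low keratin level. It had 127 counts in B5, 96 in B2, 10 in B7, 8 in B4, 3 in B8 and 0 in B1, B3 and B6. In vivo only A2 had any, with 3 counts, and in serum-free medium C4 had 4, C2 had 3, and C6 and C10 had 1 each. The summed counts were 244 in serum-containing medium and 3 in vivo, a ratio per sequenced library of 71.1, with a 95% interval of 24 to 347. Such intervals cover counting error only, and reads amplified without molecular identifiers are not independent molecules. PLAGL1 did not pass the limit. With every counted gene tested the adjusted p was 0.0085, while the exact permutation test gave 0.133. Without B2, B5 and B7 the adjusted p was 0.314. The 3 embryos with the most PLAGL1 were the 3 with the lowest keratin level and the fewest genes detected. The part of the trophectoderm content or of the library in this result was not tested.

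PEG10, a retrotransposon-derived gene needed for the placenta, had 39 counts in B3, 8 in B6 and 1 in B2, all females, and 0 in the other 5 embryos of serum-containing medium. In vivo it had 2 counts, in A6, and in serum-free medium 2 in C7 and 1 in C3. Between serum-containing medium and in vivo the adjusted p was 0.0754 with every counted gene tested and 0.627 in the exact permutation test. With every counted gene tested it was 0.0349 without B2, B5 and B7 and 0.401 without B3. SGCE, which neighbours PEG10 in ARS-UCD2.0, had summed counts of 32 in vivo and 22 in each medium.

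Of the maternally expressed members, PHLDA2, a pleckstrin homology domain protein that restrains placental growth, was counted in all 8 embryos of serum-containing medium. The counts were 24 in B2, 20 in B5, 4 in B3, 3 in B1, 3 in B8, 2 in B6, 1 in B4 and 1 in B7. In vivo only A7 was counted, with 1, and in serum-free medium C6 and C7 had 3 each and C2 had 1. The summed counts of 58 and 1 gave a ratio of 50.7 with a 95% counting interval of 8.75 to 2037. PHLDA2 did not pass the limit. With every counted gene tested the adjusted p was 0.0061, beside 7.32% of genes called there, and it stayed under 0.05 in 16 of 16 fits that left out 1 embryo each. The exact permutation test gave an adjusted p of 0.0076, with a difference of 0.96 in mean log2(CPM + 1). Without B2, B5 and B7 the adjusted p was 0.0439, and these rest on at most 4 counts an embryo. Between serum-containing and serum-free medium the adjusted p was 0.178 with every counted gene tested. As for PLAGL1, the 2 embryos with the highest counts, B2 and B5, were among the 3 with the lowest keratin level and the fewest genes detected. The part of the trophectoderm content or of the library was not tested.

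CDKN1C, an inhibitor of cyclin-dependent kinases, lies in the same domain as PHLDA2, with SLC22A18 between them in ARS-UCD2.0. It had summed counts of 3 in vivo, 13 in serum-free and 10 in serum-containing medium, and at most 7 in any embryo, the male C7. With every counted gene tested the adjusted p was 0.465 for serum-containing and 0.498 for serum-free medium over in vivo. At this depth no difference in CDKN1C was detectable. SLC22A18 was counted in 1 of the 24 embryos.

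**Figure D3:**
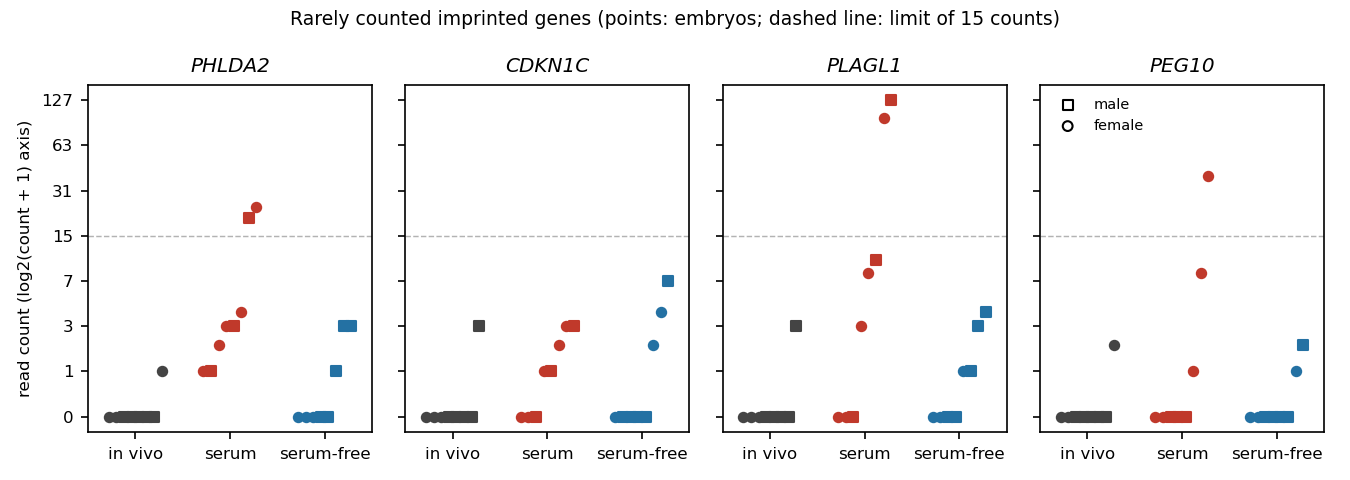
Read counts per embryo of PHLDA2, CDKN1C, PLAGL1 and PEG10 (vertical axis on a log2(count + 1) scale) in the 3 conditions (horizontal axis). Squares are males, circles are females, and the dashed line marks 15 counts. PHLDA2 was above 0 in all 8 embryos of serum-containing medium and in 1 of 8 in vivo derived embryos, while the high values of PLAGL1 and PEG10 were those of 1 or a few embryos.

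GRB10 varied widely between the embryos of every condition. It ranged from 5.81 to 22.1 CPM in vivo (median 11.9), from 3.37 (B7) to 25.5 CPM (B8) in serum-containing medium (median 13.3) and from 5.42 (C3) to 35.4 CPM (C4) in serum-free medium (median 15.7). The 3 ranges overlapped. The log2 fold change over in vivo was 0.22 ± 0.37 for serum-containing medium (adjusted p = 0.681) and 0.57 ± 0.36 for serum-free medium (adjusted p = 0.373). The 95% interval of the second, -0.13 to 1.27, includes a fold change of 2. The first was 0.54 (adjusted p = 0.275) without B2, B5 and B7.

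GNAS_1 fell in serum-containing medium. The in vivo derived embryos ranged from 55.5 (A4) over a median of 63.6 to 79.3 CPM (A3). The embryos of serum-containing medium had 7.67 (B2), 14.0 (B5), 24 (B6), 26.7 (B8), 30.0 (B7), 32.3 (B4), 47.5 (B3) and 65.7 CPM (B1), and those of serum-free medium ranged from 41.5 (C10) over 47.4 to 85.3 CPM (C7). Every embryo of serum-containing medium but the male B1 was thus below the lowest in vivo derived embryo, and the lowest, B2, was the embryo with the lowest keratin level. The means were 31.0 ± 18.4 CPM in serum-containing medium and 65.4 ± 8.48 CPM in vivo (n = 8 each), a log2 fold change of -1.09 ± 0.30 (adjusted p = 0.0123). The exact permutation test gave an adjusted p of 0.0136. Without B2, B5 and B7 the log2 fold change was -0.74 (adjusted p = 0.0268), short of a fold change of 2. Leaving out B2 alone (-0.92) or B5 alone (-0.95) also brought it under that size, with adjusted p of 0.0105 and 0.0260. In serum-free medium GNAS_1 lay below the in vivo range in 6 of 8 embryos and above it in C7, at a log2 fold change of -0.30 ± 0.16 (adjusted p = 0.280). Between the media it was -0.79 ± 0.33 (adjusted p = 0.0974), and without B1 it was -1.02 (adjusted p = 0.0327). It was -0.44 (adjusted p = 0.342) without B2, B5 and B7.

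**Figure D4:**
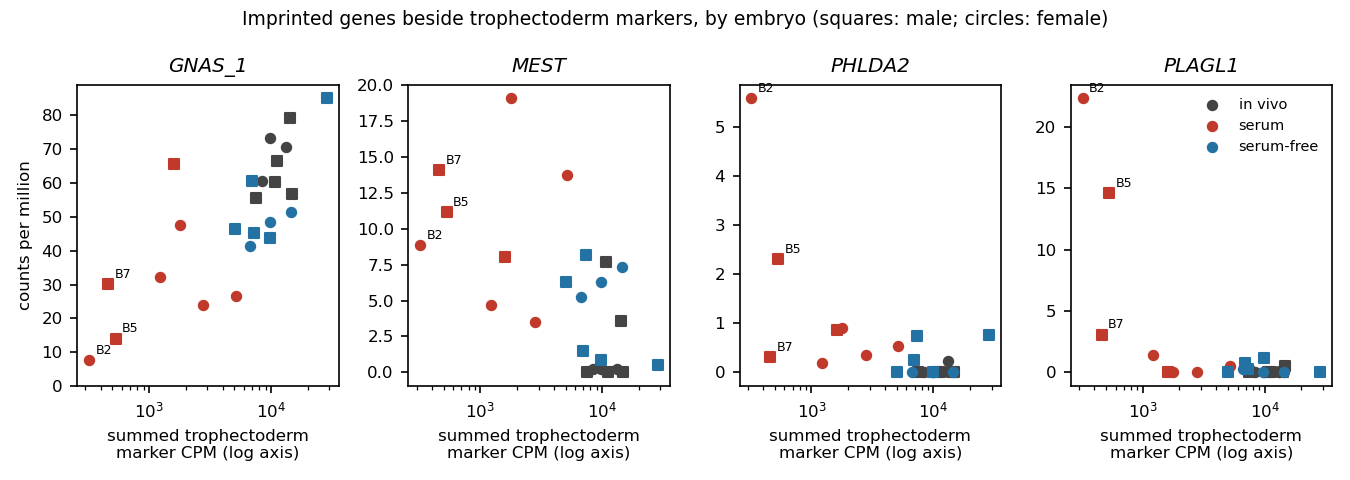
Level of GNAS_1, MEST, PHLDA2 and PLAGL1 in CPM (vertical axes, linear) against the summed level of 10 trophectoderm markers in the same embryo (horizontal axes, log scale). Each point is 1 embryo, coloured by condition, with squares for males and circles for females. KRT8 and KRT18 made up most of the marker sum in every embryo but B2 and B7. Embryos B2, B5 and B7, at the left, hold the highest PLAGL1 values and, for B2 and B5, the highest PHLDA2 and lowest GNAS_1 values. B2, B5 and B7 also had the fewest genes detected.

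Within the sexes, MEST was called in females in both media. The female embryos A6, A7 and A9 in vivo had 1 count of MEST each, while the 5 females of serum-containing medium had 20 to 84 and the 3 of serum-free medium had 18 to 37. The groups did not overlap. The summed counts gave a ratio over in vivo of 40.8 (95% counting interval 13.8 to 199) in serum-containing medium and of 27.2 (8.99 to 134) in serum-free medium. The adjusted p was 0.0441 for serum-containing medium, where 34 of 8138 genes (0.418%) were called and the groups did not overlap for 22.7%. It was 0.0323 for serum-free medium, where 25 of 8211 genes (0.304%) were called and the groups did not overlap for 21.1%. The call was lost in 7 of the 8 fits without 1 embryo for serum-containing medium (adjusted p of 0.0573 to 0.210) and in 6 of 6 for serum-free medium (0.0514 to 0.168), and MEST again passed the limit only through the cultured embryos. The counts of all genes called moved as well in these fits, between 2 and 446 for serum-containing medium, with 446 without B2, and between 1 and 18 for serum-free medium, with 18 without C3.

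In males, the 3 embryos of serum-containing medium had 8.03 to 14.1 CPM of MEST, above all 5 in vivo derived males (0 to 7.68 CPM), but the test gave an adjusted p of 0.182. No member was called in male embryos of serum-containing medium, where 13.3% of genes were called and the groups did not overlap for 26.2%. Of these males, B5 and B7 were among the embryos with the lowest keratin level. B1, B5 and B7 had the fewest genes detected of all males. A fit without B5 and B7 would leave only B1 and was not made, so culture cannot be told apart from these traits in males. PHLDA2 had 24 counts in these 3 males, 20 of them in B5, and 0 in the 5 in vivo derived males. The ratio was 11.9 with 3 counts set for the in vivo group, and the lower end of its counting interval was 8.97. The adjusted p was 0.0509 when every counted gene was tested. GNAS_1 in males had a log2 fold change of -0.82 ± 0.42 (adjusted p = 0.187), which was -1.60 (adjusted p = 0.0065) without B1. In females it was -1.28 ± 0.45 (adjusted p = 0.166), and -1.07 (adjusted p = 0.0452) without B2. No member was called in males of serum-free medium, where 0.966% of genes were. The effect on MEST was not shown to differ between the sexes, since the interaction of sex and culture had adjusted p of 0.996 for serum-containing and 0.752 for serum-free medium.

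GRB10 moved in opposite directions in the sexes in serum-containing medium without passing the test. Its level was 3.37, 8.84 and 9.18 CPM in the males of serum-containing medium and 10.3, 12.3, 14.2, 17.5 and 22.1 CPM in the in vivo derived males. In females it was 12.0, 14.7, 18.6, 25.2 and 25.5 CPM in serum-containing medium and 5.81, 7.20 and 11.6 CPM in vivo. The embryos with the lowest keratin level and the fewest genes detected were the males B5 and B7 and, of the females, only B2. The part of these traits in the difference between the sexes was not tested. Every male of serum-containing medium was below every in vivo derived male, and every female was above every in vivo derived female, where 26.2% of genes in males and 22.7% in females did not overlap in either direction. The log2 fold changes were -1.10 ± 0.49 in males (adjusted p = 0.138) and 1.25 ± 0.44 in females (adjusted p = 0.163). Their difference, the interaction of sex and culture, was -2.31 ± 0.64 on the log2 scale. Its p of 0.0022 from the fit over all genes became 0.664 after adjustment, and edgeR called 0 of 8446 genes for the interaction, with 436 genes under 0.05 before adjustment and 14 genes called by DESeq2. In serum-free medium the interaction of GRB10 was 0.01 ± 0.77 (adjusted p = 1.00).

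**Figure D5:**
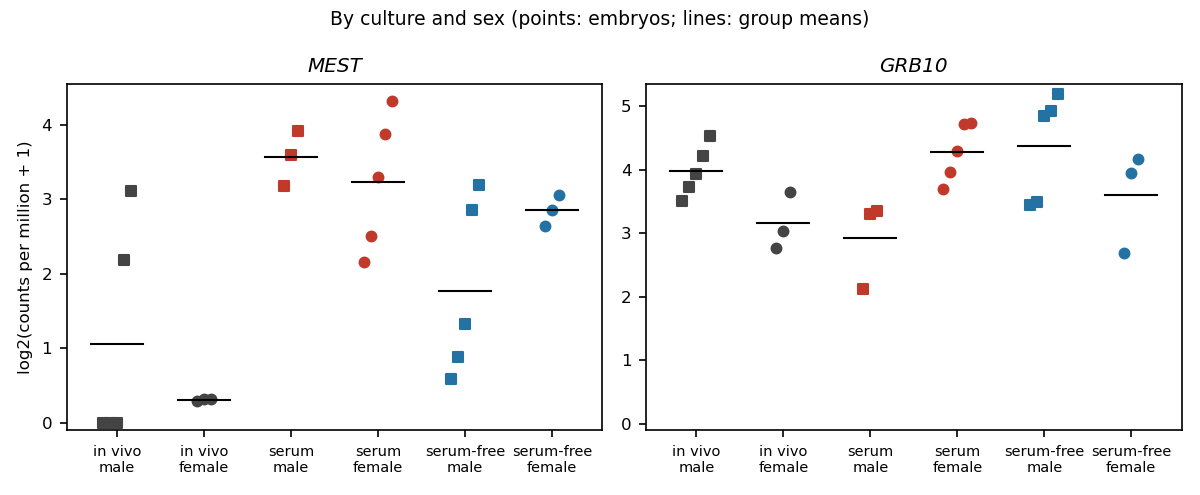
Level of MEST and GRB10 as log2(CPM + 1) (vertical axes) in the 6 groups of culture and sex (horizontal axes). Points are embryos and lines are group means. The female groups of MEST did not overlap between in vivo and either medium, and GRB10 in serum-containing medium was below in vivo in males and above it in females. The males of serum-containing medium include B5 and B7, with a low keratin level and few genes detected, and the females include B2.

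No member was called between males and females of 1 condition, where 0.653% (in vivo), 0.173% (serum-containing medium) and 0.139% (serum-free medium) of genes were. SNRPN was 136 to 187 CPM in the 5 in vivo derived males and 113 to 130 CPM in the 3 females, without overlap, at a log2 fold change of 0.44 ± 0.15 of male over female (adjusted p = 0.192). The sexes did not overlap in vivo for 9.96% of genes. In the cultured embryos the sexes overlapped for SNRPN, and the interaction with serum-free medium was -0.57 ± 0.26 (edgeR over all genes, adjusted p = 0.752). GRB10 was lower in males than in females of serum-containing medium without overlap, at -1.44 ± 0.52 (adjusted p = 0.632), where 6.07% of genes did not overlap.

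The spread between embryos was compared as the mean absolute deviation of log2(CPM + 1) from the median of the condition. For GNAS_1 it was 0.65 in serum-containing medium, 0.21 in serum-free medium and 0.15 in vivo. The difference of 0.50 between serum-containing medium and in vivo had an exact permutation p of 0.0426 and an adjusted p of 0.320. No member was called for spread, beside 72 of 7339 genes (0.981%) between serum-containing medium and in vivo, a number that fell to 0 in each of the 16 fits without 1 embryo. In each of the other 2 pairs of conditions the exact permutation test called 0 genes, with 447 (serum-free medium against in vivo) and 596 (between the media) under 0.05 before adjustment.

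No pair of the 4 members with the most counts passed a test of correlation between embryos. Over 24 embryos, with the mean of each of the 6 groups of culture and sex removed, the largest of 6 correlations was that of MEST and GRB10, with Pearson's r of 0.36 (permutation p = 0.107, adjusted p = 0.642) and Spearman's rho of 0.41 (permutation p = 0.0836, adjusted p = 0.502). Without A8 and C6, the embryos farthest from the median, r was 0.25. Among 5511 genes with at least 15 counts in every embryo, the gene most like SNRPN was SERPINE2 (r = 0.78) and the gene most like GNAS_1 was PCBP1 (r = 0.92). These values are descriptions over the same 24 libraries and depths.

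Of 36 other imprinted genes listed, 26 had a row. In embryos of serum-containing medium against in vivo, 2 paternally expressed genes passed the count limit and 3 maternally expressed ones, and none of them was called, while the median log2 fold change over all genes was 0.01. Their median log2 fold changes were -0.49 and -0.36. In serum-free medium against in vivo, 0 of 2 and 0 of 3 were called, and between the media 0 of 2 and 0 of 2. IGF2, the growth factor gene beside H19, was counted in 5 of the 24 embryos with at most 12 counts. Of imprinted genes elsewhere in the genome, IGF2R, the scavenging receptor of IGF2, had means of 2.17 ± 1.72 CPM in vivo, 2.15 ± 1.31 in serum-free medium and 1.37 ± 1.30 in serum-containing medium. MEG3, a maternally expressed noncoding RNA, had means of 12.5 ± 5.21, 5.65 ± 6.59 and 16.2 ± 11.5 CPM in vivo, with serum and without serum, with a log2 fold change of -1.14 ± 0.69 for serum-containing medium over in vivo (adjusted p = 0.221). Within the sexes, 2 of these lists' genes were called. In males of serum-containing medium over in vivo derived males, MEG3 was called lower, as 1 of 5 maternally expressed genes tested, at a log2 fold change of -3.50 ± 0.83 (adjusted p = 0.0140). MEG3 passed the count limit in this comparison only through the in vivo derived males, where it was high. IMPACT, a regulator of translation under amino acid shortage, was called lower there, at -1.78 ± 0.31 (adjusted p = 0.0035). It was 1 of 2 tested genes listed as paternally expressed, and whether IMPACT is imprinted in cattle was not examined here. Of all genes, 5.31% were called higher and 8.03% lower in that comparison. Its males of serum-containing medium were B1, B5 and B7, the males with the fewest genes detected. B5 and B7 were also among the embryos with the lowest keratin level, and the part of these traits was not tested. Between males and females in vivo, IMPACT was called higher in males, at 1.18 ± 0.21 (adjusted p = 0.0093), beside 0.201% of genes called higher, and the call was lost without A7 (adjusted p = 0.0626). IMPACT was named after its values were seen. USP29 and APEG3, which lie beside PEG3, had summed counts of 90 and 0 in vivo, 86 and 6 in serum-containing medium and 61 and 1 in serum-free medium. KCNQ1OT1 and SNURF were not analysed here, and SNURF overlaps SNRPN in ARS-UCD2.0, so reads of both genes cannot be told apart.

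Genes that protect or read imprints were tested as a list of 16, of which 12 had a row and 9 passed the limit in each of the 3 comparisons with all embryos. For serum-containing medium over in vivo 2 were called higher and 0 lower, beside the 6.43% of all genes called higher. UHRF1, which brings the maintenance methyltransferase DNMT1 to hemimethylated DNA, ranged from 4.94 to 19.7 CPM in vivo and from 19.9 to 42.6 CPM in serum-containing medium, without overlap, at a log2 fold change of 1.06 ± 0.29 (adjusted p = 0.0112). Without B2, B5 and B7 it was 1.05 (adjusted p = 0.0218), and without A1, A4 or B2 alone it came short of a fold change of 2, down to 0.96. Groups did not overlap for 6.98% of genes there. OOEP, a protein of the subcortical maternal complex of oocytes, ranged from 0.722 to 5.54 CPM in vivo and from 3.79 to 27.5 CPM in serum-containing medium. Its log2 fold change was 2.01 ± 0.52 (adjusted p = 0.0078), and 1.98 (adjusted p = 0.0133) without B2, B5 and B7. Here and in serum-free medium over in vivo, also in males, OOEP passed the count limit only through the cultured embryos, where it was high. The same 2 genes were called higher in serum-free medium over in vivo, UHRF1 at 1.80 ± 0.30 (adjusted p = 0.0015) and OOEP at 2.33 ± 0.40 (adjusted p = 0.0021), in a comparison that shares the in vivo derived embryos and where 1.61% of genes were called higher. ARID4B, a chromatin protein, was called higher in serum-containing than in serum-free medium, at 1.11 ± 0.33 (adjusted p = 0.0315), beside 3.55% of genes called higher. It was not called without B2, B5 and B7 (0.76, adjusted p = 0.205), nor without B2, B5, C7 or C10 alone. In males, UHRF1 and OOEP were called higher in serum-free medium over in vivo, where 0.653% of genes were. TRIM28, the corepressor that holds imprinted regions methylated, was called higher in males of serum-containing medium over in vivo, at 1.04 ± 0.24 (adjusted p = 0.0138). It was 1 of 9 tested there, beside 5.31% of all genes called higher, and those males include the embryos B5 and B7 with a low keratin level. Without 1 embryo each, these calls held in 6 of 10 fits for UHRF1, 1 of 10 for OOEP and 5 of 8 for TRIM28, which was lost without A2, B1 or B7. TRIM28 was named after its values were seen. The median of the 9 was 0.61 for serum-containing medium over in vivo, -0.14 for serum-free medium over in vivo and 0.07 between the media.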

How the data were processed

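RNA of single blastocysts was amplified with a SMARTer kit, which does not mark the strand, and sequenced on Illumina HiSeq instruments. The authors mapped the reads with CLC Genomics Workbench to the bovine build UMD 3.1, added some genes by hand, among them H19, and deposited raw counts of uniquely mapped exon fragments per gene. No coordinates are given, because the annotation at hand is of another build, and it was used for names and neighbours only (10 of 10 symbols matched). Amplification from single embryos makes low counts unsteady.

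The unit is counts, with 3253051 to 9000447 per embryo, and genes under 15 counts carry wide counting error. The counts were scaled by TMM and tested with edgeR 4.0.16 (quasi-likelihood test, Benjamini-Hochberg adjustment over all genes tested) in R 4.3.3, and with DESeq2 1.42.0 as an alternative. CPM are counts per 1000000 of the TMM-scaled library. SE is the size of the log2 fold change divided by the square root of F, and intervals are at 95%. Spread and means were tested by exact permutation of log2(CPM + 1), and correlations by 100000 permutations within groups. The differential expression tests between groups and the test of spread were tried on simulated data. The interactions, the correlations, the permutation of means and the counting intervals were not. The members and lists were chosen with earlier results of these data known. All members are named. Of the other imprinted genes, IGF2, IGF2R, MEG3, KCNQ1OT1, SGCE, COPG2, SNURF, USP29 and APEG3 are named, and genes of these lists where, with all embryos, they were among the 3 called with the largest change in each direction. The permutation test of means was added after seeing the data. Each embryo is 1 replicate. No pair of embryos agreed within counting noise (smallest chi-square per degree of freedom 13.8 over 276 pairs). Embryo numbers of the labels do not pair embryos of different conditions. Columns not matched to an embryo numbered 0.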

Additional observations from a re-analysis of the deposited data

Results flagged for a closer look

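Among 47 checks of a member in a group of embryos, the highest embryo stood apart from the others in 13. In 9 of them 1 embryo had counts and the others had 0, which meets the criterion whatever the value, so the rate of about 1 in 20 that chance gives does not apply to them. In the other 4 the remaining embryos differed among themselves. All 13 concern members that were rarely counted. In vivo, PEG10 was 0.480 CPM in A6, PHLDA2 0.223 CPM in A7, CDKN1C 0.819 CPM in A1 and PLAGL1 0.53 CPM in A2, each against 0 in the other 7 embryos, and the last 2 also stood apart among the males. In serum-containing medium PEG10 was 8.86 CPM in B3, and among the females PHLDA2 was 5.58 CPM and PLAGL1 22.3 CPM in B2. In serum-free medium H19 was 0.169 CPM in C3 and PEG10 0.508 CPM in C7, which also stood apart among the males, and CDKN1C was 1.78 CPM in C7 among the males. The values outside serum-containing medium rest on 1 to 7 counts.

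The difference of GRB10 between the sexes in serum-containing medium was singled out because every male moved below and every female above the in vivo derived embryos of the same sex. The interaction was -2.31 on the log2 scale (edgeR, adjusted p = 0.664). The males of serum-containing medium include B5 and B7, with a low keratin level and few genes detected, while of the females only B2 was such an embryo. The part of these traits was not tested.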

How the results depend on the processing

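For the number of members called, 84 of 92 values under another setting kept the reported count within 1.5 times and 8 did not. Most of these values compare 0 with 0, because most results had 0 members called. Where a member was called, the count was kept in 8 of 11 settings for serum-containing medium over in vivo. In females it was kept in 5 of 6 for serum-containing and 4 of 6 for serum-free medium. For serum-containing medium over in vivo (2 reported) the count was 4 with every counted gene tested, where PHLDA2 and PLAGL1 joined, 1 with 15 counts required in both groups, which leaves out MEST, and 1 without B2, B5 and B7. It was 1 to 2 without single embryos. In males the count was 1 with every counted gene tested (PLAGL1, adjusted p = 0.0159) against 0 reported, and 0 to 1 without single embryos. In females it was 0 to 2 without single embryos, and 0 with 15 counts required in both groups, against 1 reported. For females of serum-free medium it was 0 with 15 counts in both groups, 0 in 1 fit over 24 embryos (MEST, adjusted p = 0.438) and 0 without each single embryo, against 1 reported. Between the media it was 0 to 1 without single embryos, and for the spread in serum-containing medium against in vivo 1 with every counted gene tested.

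Signs that turned belong to values that passed no test: SNRPN in serum-free medium over in vivo (-0.02 reported, 0.065 in 1 fit over 24 embryos, -0.066 to 0.056 without single embryos), the interaction of GRB10 with serum-free medium (0.01 reported, -0.0024 by DESeq2, -0.029 with every counted gene tested, -0.35 to 0.30 without single embryos) and the correlation of SNRPN and MEST (-0.087 reported, 0.081 with culture means removed). Without single embryos the log2 fold change of male over female ran from -0.090 to 0.50 for MEST and from -0.39 to 0.77 for GNAS_1 (0.38 reported) in serum-containing medium, and from -0.31 to 0.0064 for SNRPN in serum-free medium. The interaction with serum-containing medium ran from -0.26 to 0.25 for SNRPN and from -0.26 to 0.89 for GNAS_1 (0.50 reported). The difference in spread ran, for serum-containing medium against in vivo, from -0.015 to 0.13 for SNRPN and from -0.26 to 0.17 for MEST. For serum-free medium against in vivo it ran from -0.032 to 0.031 for SNRPN and from -0.031 to 0.094 for GNAS_1, and between the media from -0.013 to 0.13 for SNRPN and from -0.21 to 0.072 for GRB10. The cause was not tested.

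Embryos with the same label number did not deviate together (correlations of -0.137 to 0.0922 over 7 pairs for serum-containing medium against in vivo). With the number as a replicate block, MEST was 3.91 (adjusted p = 0.0182) and GNAS_1 -1.18 (adjusted p = 0.0308) there, and the block left 2, 0, 0 and 0 members called in serum-containing and serum-free medium over in vivo, between the media and in males of serum-free medium. Over all genes the block called 703, 82, 29 and 8 against 1011, 161, 640 and 74. Counts of all genes also moved with other settings: 29 to 208 for serum-free medium over in vivo (29 by the exact permutation test), 544 to 1403 for serum-containing medium over in vivo, 33 to 585 in females of serum-containing medium, 0 to 232 in females of serum-free medium, 8 to 201 in males of serum-free medium, and 271 between the media without B2, B5 and B7. Male against female counts ran from 23 to 119 in vivo, 0 to 97 in serum-containing and 0 to 57 in serum-free medium, the interactions from 0 to 14 and 0 to 5, and spread from 75 to 394, 0 to 130 and 0 to 167. Of the other genes named as called, UHRF1 (serum-containing medium over in vivo, 0.96), IMPACT between the sexes in vivo (adjusted p = 0.396) and OOEP in males of serum-free medium were not called in 1 fit over 24 embryos, and ARID4B (adjusted p = 0.0642) and OOEP in those males were not called with every counted gene tested. Depth limits H19, CDKN1C, PEG10 and most values of PHLDA2 and PLAGL1, which rest on a few counts.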
